A study of Mus musculus with 8 samples.

Results

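The replication-dependent histone genes are the mouse genes that make the bulk of the H1, H2A, H2B, H3 and H4 proteins of chromatin. They were taken as the protein-coding rows of the deposited tables whose name begins with Hist1h, Hist2h, Hist3h or Hist4h. The rule found 67 genes among 51826, of which 6 encode H1, 18 H2A, 18 H2B, 12 H3 and 13 H4. The Hist1 cluster on chromosome 13 held 54 of them, the Hist2 cluster on chromosome 3 held 10, the Hist3 cluster on chromosome 11 held 2, and Hist4h4 lay alone on chromosome 6. A further 3 rows with a Hist name were pseudogenes and were not members.

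The study compared hypothalamic cells of C57BL/6 mouse fetuses at embryonic day 14.5 that did or did not keep a copy of Ptf1a, a transcription factor gene of neural progenitors. Heterozygous libraries (Het, libraries 1 to 4, n = 4) came from Ptf1a cre/+; Ai9/+ fetuses. Homozygous libraries (Homo, libraries 9 to 12, n = 4) came from fetuses with cre on both Ptf1a alleles and the same Ai9 reporter. Ai9 is a Cre-dependent red fluorescent protein (RFP), and RFP+ cells were sorted, so every library, the controls included, carried Cre at Ptf1a and held cells whose lineage had expressed it. The labels call the groups control and KO and do not say whether each library was a separate fetus, so the p-values speak of the spread among these 8 libraries, part of which may be technical.

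Genes of this kind have no introns and are transcribed mainly in S phase, when new DNA is packed into nucleosomes. An octamer of the core histones H2A, H2B, H3 and H4 forms the nucleosome, and the linker histone H1 binds the DNA between nucleosomes. Their mRNAs end in a short stem-loop in place of a poly(A) tail, which the stem-loop binding protein Slbp recognises. The labels name total RNA and a total-RNA library kit.

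The stem-loop is shown for the members on which the results below turn, since it is the feature that sets these mRNAs apart and it came in different letters in H4 than in the other classes. Lines give GENCODE M21 transcript sequence (GRCm38), 5′ to 3′, with the 16 bases of the stem-loop in capitals and 5 bases on either side.

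Hist1h4d (chr13:23581945-23581970, + strand): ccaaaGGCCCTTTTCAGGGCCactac
Hist1h4h (chr13:23531453-23531478, + strand): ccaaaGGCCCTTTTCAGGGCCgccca
Hist1h4c (chr13:23698084-23698109, - strand): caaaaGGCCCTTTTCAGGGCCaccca
Hist1h4j (chr13:21735432-21735457, + strand): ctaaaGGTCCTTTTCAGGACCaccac
Hist1h3e (chr13:23561898-23561923, - strand): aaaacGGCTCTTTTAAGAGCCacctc
Hist1h2ac (chr13:23683472-23683497, - strand): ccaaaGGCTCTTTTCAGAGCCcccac
Hist3h2ba (chr11:58949344-58949369, + strand): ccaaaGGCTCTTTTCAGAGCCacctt
Hist1h1e (chr13:23621777-23621802, - strand): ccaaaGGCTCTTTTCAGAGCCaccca

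The search took any stem that begins with GG, pairs in full with its reverse complement and encloses a 4-base loop beginning with TTT, on the transcribed strand. Of 65 members with a transcript in GENCODE M21, 42 held such a stem-loop, in 3 forms. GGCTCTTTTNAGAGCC was found in 4 of 6 H1, 11 of 18 H2A, 8 of 16 H2B and 8 of 12 H3 members and in 0 H4 members. GGCCCTTTTNAGGGCC was found in 9 of 13 H4 members and GGTCCTTTTNAGGACC in 2 of them (Hist1h4j and Hist1h4b), and neither in another class. Across the transcripts of 21901 genes, these forms were present in 35 genes (0.160%), 10 genes (0.0457%) and 2 genes (0.00913%). The other 23 members include transcripts annotated for the coding part only. For those, the absence of these letters says nothing about the mRNA, and how many they are was not counted. For the rest, the search would miss a stem-loop that is not paired in full or has other loop letters.

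In Homo libraries, H3 and H4 genes were at about the level of 45.3% and 52.9% of Het, and H1, H2A and H2B genes at 78.0%, 76.3% and 68.3% (summed Total exon reads as counts per 1000000, CPM). Of 56 members with enough reads to test, 10 were lower in Homo and 0 were higher at an adjusted p under 0.05 (edgeR quasi-likelihood test). Over all 12257 tested genes, 6.12% were called lower and 6.96% higher. The 10 genes were Hist1h4d, Hist1h4h, Hist1h4c, Hist1h4k and Hist1h4j of H4, Hist1h3e, Hist1h3f and Hist1h3i of H3, Hist1h2ac of H2A and Hist3h2ba of H2B. At an unadjusted p under 0.05, 23 members were lower and 0 higher, where 14.2% of all tested genes were lower and 15.1% higher. DESeq2 called 14 members lower and 0 higher, with 8.0% of all genes lower and 7.83% higher. The median log2 fold change of the 56 members was −0.53, against 0.04 for all tested genes, and 48 of the 56 were negative, against 46.6% of all tested genes. Near-identical members can share reads, so the members counted here are not separate observations. In sorted bulk cells, fewer cells of a type and less RNA per cell cannot be told apart.

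A strong trend with base composition ran through the same comparison and touches every value above. Genes rich in G and C were lower in Homo over the whole table, and members had a median GC content of 59.7% where all tested genes had 50.5%, with their 90th percentile at 58.2%. When a smooth per-library trend on GC content was removed, 3 members were still called lower (Hist3h2ba, Hist1h3e and Hist1h4d) and 0 higher, with 0.441% of all genes called lower and 0.481% higher. At an unadjusted p under 0.05, 13 members were lower and 1 higher under that trend, where 9.4% of all genes were lower and 6.4% higher. The median over members became −0.29, with −0.04 for all genes. By class the medians became −0.73 for H4, −0.72 for H3, −0.30 for H2B, 0.15 for H2A and 0.07 for H1, so the medians of H1 and H2A were above 0. All 12 tested H4 genes had a negative log2 fold change, against 11 of 12 before the trend was removed. Of all tested genes, 54.4% were negative after the trend was removed and 46.6% before. Near-identical H4 genes can share reads, so the 12 are not separate observations. The called members had a median GC content of 58.7% and the tested members that were not called 60.1%. Whether base composition accounts for the lower levels was not tested.

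**Figure D1:**
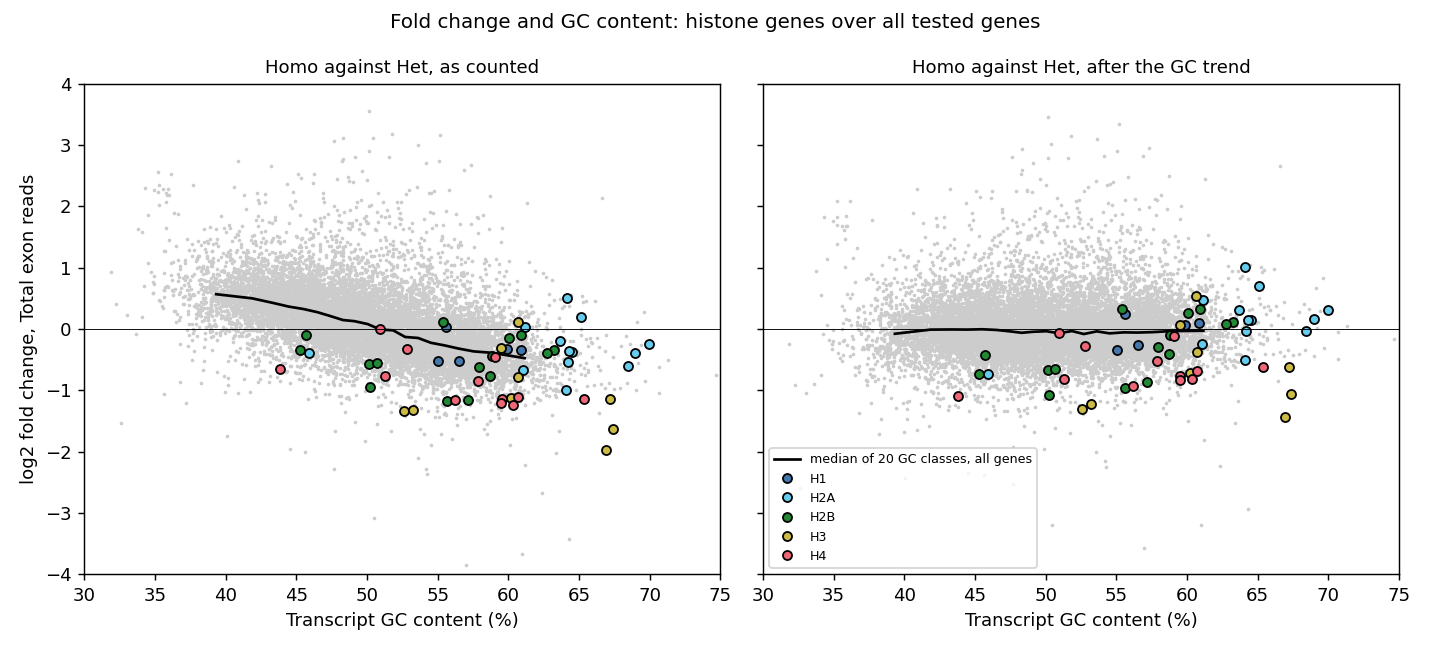
log2 fold change of Homo against Het (y axis, Total exon reads) over transcript GC content in percent (x axis), as counted on the left and after removal of the per-library GC trend on the right. Grey points are all tested genes with a GC value, the black line joins their medians in 20 GC classes, and coloured points are the 54 tested histone genes with a GC value, by class. On the left most histone points lie below 0 in the GC-rich range where the line also falls. On the right the line is flat near 0 and the H3 and H4 points remain mostly below it.

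Other facts of the libraries bear on all members alike. Libraries held 2502387 to 3009181 Total exon reads, and members took 50647 reads over the 8 libraries, so single members rest on few reads per library. The Ptf1a row had 1 read in a Het library and 0 in the other 7, so its level could not check the labels at this depth. Unique gene reads were 53.9% to 55.1% intronic in Het libraries 1 and 2 and Homo library 9, and 64.7% to 67.3% intronic in the other 5, a split that crosses genotype. With that split as a term in the fit, 11 members were called lower and 0 higher, with 6.56% of all genes lower and 8.93% higher. In the 5 libraries of the higher set alone, 5 were called lower and 0 higher, with 2.75% of all genes lower and 2.65% higher. Neuron markers were the highest of the cell type lists (summed level 5773 to 6055 CPM in Het and 6213 to 7220 in Homo). Of 6 tested neuron markers, Elavl3, Elavl4 and Map2 were called higher and Tubb3 lower. Of 5 tested hypothalamic transcription factor genes, 1 was called higher and 3 lower. Over all tested genes, 6.96% were called higher and 6.12% lower. Isl1 rose from 217 ± 39.7 to 498 ± 72.4 CPM (log2 fold change 1.20 ± 0.15, adjusted p = 0.000746), and Nkx2-1 (−0.64, adjusted p = 0.0137), Hmx2 (−0.81, adjusted p = 0.0158) and Hmx3 (−0.90, adjusted p = 0.0195) were called lower. After the GC trend, Isl1 and Elavl3 were the only ones of these 8 genes still called. Elavl3, Elavl4, Isl1 and Nkx2-1 were called in all 8 fits that each left out a library. Hmx2 kept its call in 7, Hmx3 in 5, Tubb3 in 3 and Map2 in 2 of those 8 fits. In all 8 libraries, no erythroid, endothelial or mesenchymal marker was called (0 at an unadjusted p under 0.05 and 0 by DESeq2, of 5, 3 and 3 tested), and 0 of 6 myeloid markers had enough reads to test. In the 5 libraries of higher intron share, 2 of 5 tested mesenchymal markers, Col1a1 and Col3a1, were called higher (3 at an unadjusted p under 0.05), with a median log2 fold change of 1.97. Col1a1 was at 0 in all Het libraries and in Homo library 9, and at 1.21, 12.5 and 28.3 CPM in Homo libraries 10, 11 and 12. The summed erythroid markers ranged from 4.11 to 104.4 CPM in Het and from 3.16 to 84.8 in Homo, and the summed mesenchymal markers from 6.01 to 27.4 in Het and from 7.02 to 205 in Homo. The part of these markers in the histone result was not tested.

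**Figure D2:**
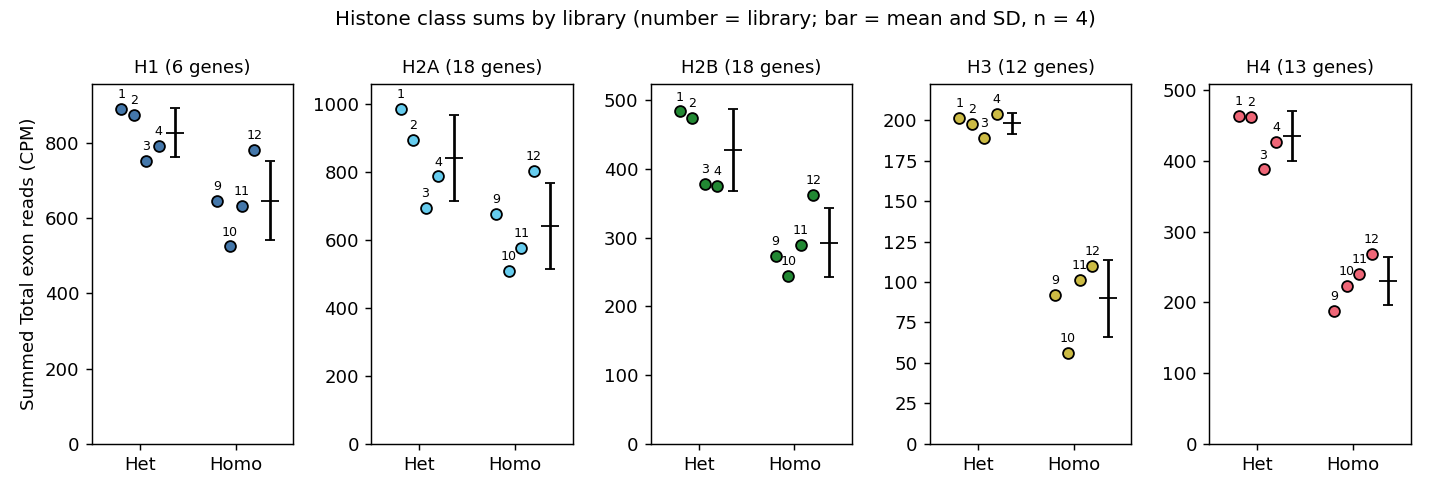
Summed Total exon reads of each histone class in CPM on the y axis (from 0), for the 4 Het and 4 Homo libraries on the x axis. Points are libraries with their numbers, and bars give mean and SD (n = 4). Het and Homo points are separate for H2B, H3 and H4, and overlap for H1 and H2A.

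Among the linker histone H1 genes, Hist1h1e, a somatic H1, had the highest level of any member on the per-length scale of the authors' RPKM, with 242 ± 53.6 in Het and 171 ± 42.2 in Homo (SD, n = 4), and it held 73.3% of all H1 reads. In Total exon reads it measured 655, 653, 510 and 592 CPM in Het libraries 1 to 4 and 497, 418, 455 and 545 CPM in Homo libraries 9 to 12. Homo library 12 lay above Het library 3, so the genotypes overlapped, and the log2 fold change of −0.33 ± 0.13 (SE) did not pass the test (adjusted p = 0.100). After the GC trend its log2 fold change was 0.07 ± 0.15 (adjusted p = 0.875).

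Hist1h1c, another somatic H1 gene, measured 146, 102, 95.9 and 102 CPM in Het and 78.9, 61.0, 78.1 and 90.7 in Homo. All Homo libraries were below all Het libraries. Its log2 fold change was −0.53 ± 0.17, with an adjusted p of 0.0504 in Total reads and 0.0433 in Unique reads, so the call rested on which count was used. It was called in 1 of 8 fits that each left out a library and was not called after the GC trend (adjusted p = 0.374). Hist1h1d (77.1 ± 16.2 in Het, 60.9 ± 29.8 CPM in Homo) and Hist1h1a (25.7 ± 3.87 and 17.8 ± 5.76) overlapped between genotypes and did not pass. Hist1h1b, chosen here after its values were seen, was the H1 gene with no lean to either side (log2 fold change 0.03 ± 0.59). Hist1h1t, the testis H1, had 16 reads over the 8 libraries and was not tested. Of 5 tested H1 genes, 0 were called in Total reads and 1 was called lower in Unique reads.

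Among the 18 H2A genes, 13 had enough reads to test and 1 was called. Hist1h2ac measured 70.2, 80.2, 54.3 and 65.0 CPM in Het and 25.6, 30.7, 41.1 and 37.3 in Homo. The lowest Het library was above the highest Homo library. In Unique reads its log2 fold change was −1.02 ± 0.23 (adjusted p = 0.0104), and the adjusted p in Total reads was 0.00499. It was called in all 8 fits that each left out a library. After the GC trend it was −0.50 ± 0.19 (adjusted p = 0.199).

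The 3 H2A genes with the most reads could hardly be placed. Hist3h2a, Hist2h2aa2 and Hist2h2aa1 had 99.9% of their reads outside the Unique count. Hist2h2aa1 and Hist2h2aa2 are copies with the same 393 coding bases, as their first 60 coding bases show.

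Hist2h2aa1 (chr3:96245581-96245640, + strand): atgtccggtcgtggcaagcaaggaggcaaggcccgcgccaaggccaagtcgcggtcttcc
Hist2h2aa2 (chr3:96240191-96240250, - strand): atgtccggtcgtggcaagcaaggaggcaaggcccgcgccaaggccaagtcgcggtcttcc

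How reads fell between the copies changed from library to library. Hist2h2aa1 had 202, 141, 63.2 and 93.0 CPM in Het where Hist2h2aa2 had 133, 146, 157 and 151. Hist2h2aa1 was thus the higher copy in Het library 1 and the lower one in libraries 2 to 4 after scaling to the same library. Summed as 1 feature they gave 272 ± 50.9 CPM in Het and 209 ± 56.2 in Homo, a log2 fold change of −0.38 ± 0.19 that did not pass (adjusted p = 0.189). Other rows overlap these copies too: Gm20634 covers 529 bases of Hist2h2aa1 on the same strand, and antisense rows (Gm20633 and Gm20632) lie over both. Of the 36-base stretches (the read length) of Hist3h2a, 31.9% occur in another gene. In the deposited table its whole span of 2146 bases also lies in the span of Trim17 on the same strand. Hist3h2a measured 232 ± 46.2 CPM in Het and 176 ± 30.4 in Homo (log2 fold change −0.40 ± 0.16, adjusted p = 0.117). Reads of Hist3h2a and Trim17 there cannot be told apart.

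Of the 18 H2B genes, 17 were tested and 1 was called. Hist3h2ba measured 145, 114, 106 and 115 CPM in Het and 70.5, 54.1, 41.4 and 48.3 in Homo. The genotypes did not overlap, and the highest Homo library was library 9. The log2 fold change was −1.16 ± 0.17 in Total reads (adjusted p = 0.00166), −1.11 ± 0.17 in Unique reads (adjusted p = 0.0014) and −0.87 ± 0.19 after the GC trend (adjusted p = 0.0335). It was called in all 8 fits that each left out a library, and under the GC trend in 2 of 8 (without Het library 3 or Homo library 9). With GC and exon length trends together it was at −0.76 and was not called (adjusted p = 0.0619). Hist1h2bc (51.3 ± 19.1 CPM in Het and 34.7 ± 8.60 in Homo) overlapped between genotypes. Hist2h2bb (40.7 ± 10.7 and 44.2 ± 15.5) did so too, and 99.9% of its reads were not unique, with a lincRNA row over its whole span on the same strand and an antisense row on the other.

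H3 genes had the lowest Homo level relative to Het of the 5 classes. The class sum was 202, 198, 189 and 204 CPM in Het (198 ± 6.52) and 91.9, 56.1, 102 and 110 CPM in Homo (89.9 ± 23.7). No library of one genotype came near the other, and the log2 ratio of the means was −1.12 among the libraries with the lower intron share and −1.14 among those with the higher. The same ratios were −1.30 and −0.74 for H4, −0.81 and −0.34 for H2B, −0.48 and −0.23 for H2A, and −0.45 and −0.26 for H1. In the lower set, every ratio rested on Homo library 9 alone for its Homo side. Of 9 tested H3 genes, 3 were called lower and 8 had a negative log2 fold change.

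Hist1h3e carried 36.4% of the H3 reads over the 8 libraries. It measured 69.5, 78.9, 53.2 and 98.2 CPM in Het and 40.3, 19.8, 31.5 and 27.9 in Homo. The genotypes did not overlap. A log2 fold change of −1.32 ± 0.23 was found in Total reads (adjusted p = 0.00338) and −1.31 ± 0.23 in Unique reads (adjusted p = 0.00256). With a GC content of 53.2% it was among the members nearest to the average gene, and after the GC trend it kept a log2 fold change of −1.23 ± 0.24 (adjusted p = 0.0207). It was called in all 8 fits that each left out a library, and in 3 of 8 under the GC trend (without Het library 1 or 3 or Homo library 9).

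The 2 other called H3 genes rested on fewer reads. Hist1h3f measured 33.2, 27.1, 25.4 and 17.3 CPM in Het and 6.67, 6.06, 9.16 and 18.8 in Homo, where Homo library 12 lay above Het library 4. Its log2 fold change of −1.34 ± 0.36 (adjusted p = 0.0261) lost its call without Het library 1 or 2 or Homo library 9, 10 or 11, in Unique reads (−1.38 ± 0.48, adjusted p = 0.0636) and after the GC trend (−1.31 ± 0.35, adjusted p = 0.0901). Hist1h3i, at 35.5, 16.04, 8.09 and 21.4 CPM in Het and 5.96, 8.88, 2.93 and 2.75 in Homo, had 88.6% of reads outside the Unique count and too few Unique reads to test. Homo library 10 lay above Het library 3 for Hist1h3i, so the genotypes overlapped. Its log2 fold change was −1.98 ± 0.49 (adjusted p = 0.0175) and lost its call without Het library 1 or Homo library 11 or 12. The call was also lost after the GC trend (−1.43, adjusted p = 0.138). Hist2h3b, whose reads were all outside the Unique count, was at 15.98 ± 5.31 CPM in Het and 7.23 ± 3.33 in Homo with no overlap, and did not pass (adjusted p = 0.0678). Hist1h3d was at 17.4 ± 6.48 and 10.1 ± 3.42 CPM and did not pass (adjusted p = 0.159).

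H4 genes gave the most calls, 5 of 12 tested. All H4 members encode a protein that is nearly the same across the family, but their coding DNA differs at many synonymous places: between the 13 coding sequences of 312 bases the median identity was 93.9%. The first 60 coding bases of 3 other called members are set beside those of Hist1h4d (GRCm38), with bases that differ from Hist1h4d in capitals.

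Hist1h4d (chr13:23581602-23581661, + strand): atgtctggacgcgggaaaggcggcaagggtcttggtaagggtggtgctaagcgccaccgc
Hist1h4h (chr13:23531115-23531174, + strand): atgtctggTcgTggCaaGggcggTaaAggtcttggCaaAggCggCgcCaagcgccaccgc
Hist1h4c (chr13:23698390-23698449, - strand): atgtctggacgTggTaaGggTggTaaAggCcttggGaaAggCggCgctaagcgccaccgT
Hist1h4k (chr13:21750446-21750505, - strand): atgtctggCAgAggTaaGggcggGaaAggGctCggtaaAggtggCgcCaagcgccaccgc

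Hist1h4h, Hist1h4c and Hist1h4k differ from Hist1h4d at 11, 12 and 12 of these 60 bases, and 42.7% of the 36-base stretches of Hist1h4d occur in another gene. The H4 class as a whole had 24.8% of reads outside the Unique count, against 83.5% for H2A, 55.4% for H3, 47.9% for H2B and 5.48% for H1.

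Hist1h4d had the highest level of the H4 genes per length (84.9 ± 17.9 RPKM in Het and 33.4 ± 4.40 in Homo, by the authors' values). In Total reads it measured 123, 117, 103 and 102 CPM in Het and 43.1, 46.8, 50.6 and 59.7 in Homo. All Het libraries were above all Homo libraries, and the 4 values of each genotype lay close together. The log2 fold change was −1.15 ± 0.15 in Total reads (adjusted p = 0.000746) and −1.28 ± 0.15 in Unique reads (adjusted p = 0.000376). After the GC trend it was −0.77 ± 0.16 (adjusted p = 0.0266). It was called in all 8 fits that each left out a library, and in 3 of 8 under the GC trend (without Het library 3 or Homo library 9 or 12).

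Hist1h4h followed with 93.0, 105, 102 and 92.0 CPM in Het and 46.3, 48.4, 50.2 and 72.2 in Homo. The genotypes did not overlap, though Homo library 12 stood apart from the other 3. The log2 fold change was −0.85 ± 0.16 (adjusted p = 0.00491), and −0.53 ± 0.17 after the GC trend (adjusted p = 0.142). Hist1h4c measured 65.0, 34.8, 38.9 and 39.4 CPM in Het and 11.2, 19.0, 23.5 and 23.2 in Homo. Here Het library 1 stood apart, and even so all Het libraries were above all Homo libraries. Its log2 fold change was −1.21 ± 0.27 (adjusted p = 0.0109), and −0.84 ± 0.27 after the GC trend (adjusted p = 0.138). Hist1h4h and Hist1h4c were both called in all 8 fits that each left out a library.

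Hist1h4k (34.0 ± 10.3 CPM in Het and 15.4 ± 6.69 in Homo, adjusted p = 0.0366) and Hist1h4j (30.8 ± 3.90 and 18.1 ± 3.54, adjusted p = 0.0376) also did not overlap between genotypes. Hist1h4k lost its call without Het library 2 or 4 or Homo library 10 or 11, and Hist1h4j without any library but Het library 3. Hist4h4, the H4 gene on chromosome 6, was at 37.5 ± 10.46 CPM in Het and 23.9 ± 4.804 in Homo and did not pass (adjusted p = 0.0904). With a GC content of 43.8% its estimate grew in size under the GC trend, from −0.65 ± 0.24 to −1.09 ± 0.28 (adjusted p = 0.0719). In Unique reads with the trend it was called at −1.11 (adjusted p = 0.0475). Hist2h4, chosen here after its values were seen, was level: it measured 15.7, 20.7, 5.01 and 16.9 CPM in Het and 13.0, 21.4, 17.2 and 7.07 in Homo. Hist1h4m, with 92.9% of reads outside the Unique count, was at 16.5 ± 10.2 and 7.55 ± 5.10 CPM and did not pass (adjusted p = 0.286).

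**Figure D3:**
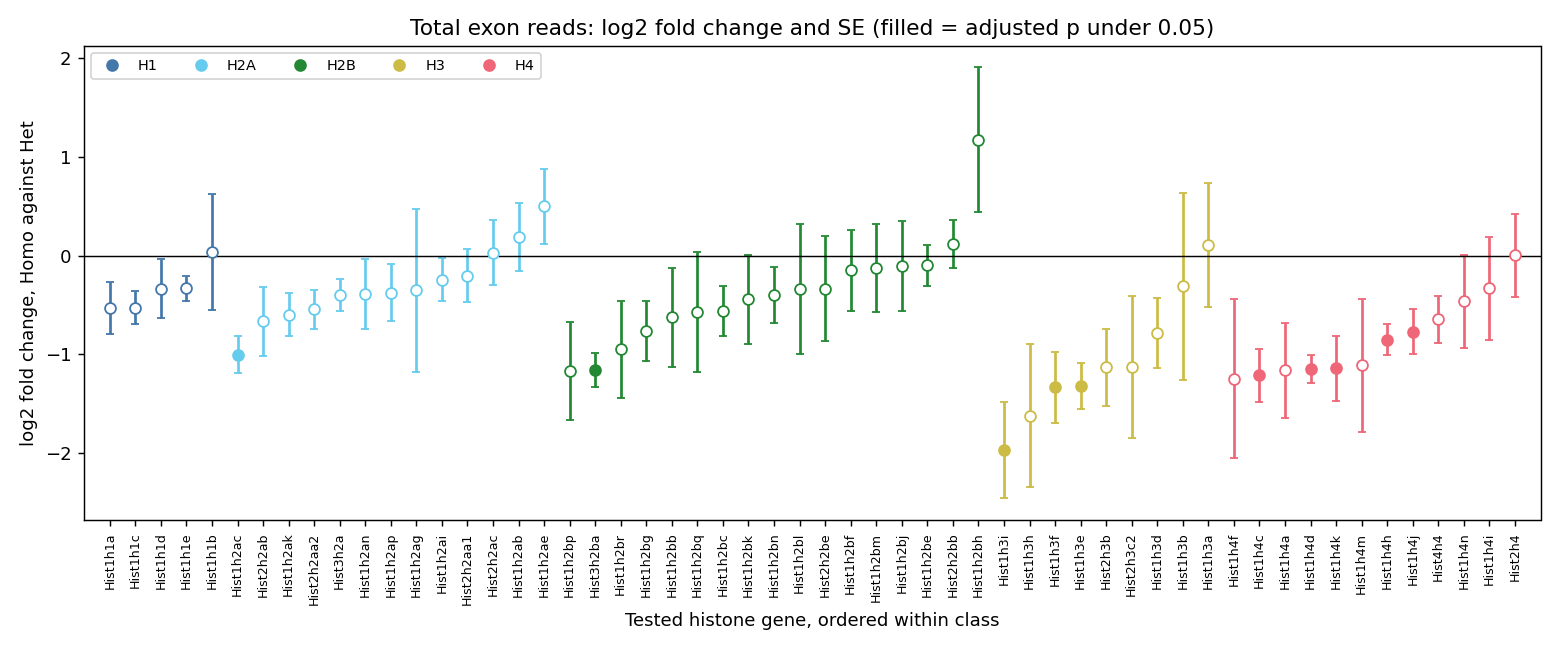
log2 fold change of Homo against Het with its SE (y axis) for the 56 tested histone genes, ordered within class (x axis) and coloured by class. Filled points passed an adjusted p under 0.05. All 10 filled points are below 0, and 8 of them are H3 or H4 genes.

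Ratios of class sums within a library do not depend on how the library as a whole is scaled. H4 over H1 was 0.520, 0.528, 0.515 and 0.537 in Het and 0.291, 0.425, 0.379 and 0.344 in Homo. H3 over H1 was 0.226, 0.226, 0.251 and 0.257 in Het and 0.142, 0.107, 0.160 and 0.141 in Homo. Neither ratio overlapped between genotypes. H2A over H1 was 1.01 ± 0.08 in Het and 0.99 ± 0.06 in Homo and overlapped. H4 over H2A was lower in every Homo library in Total reads (0.52 ± 0.04 in Het, 0.37 ± 0.07 in Homo) but overlapped in Unique reads, where few H2A reads remain. The GC trend was not removed from these ratios, and the classes differed in median GC content (56.1% for H1, 59.1% for H4, 60.7% for H3 and 64.2% for H2A). Hist3h2a, whose reads cannot be told from those of Trim17, held 27.6% of the H2A level in Total reads. The ratios were not tested, since they are sums over members.

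The rule by which a read was counted as Unique was not given in the sources used here. Unique exon reads left 36 members to test. Of these, 9 were called lower and 0 higher, where 7.52% of all 11203 tested genes were lower and 6.7% higher, and the median log2 fold change was −0.54 against 0.01 for all. DESeq2 called 10 lower and 0 higher, with 8.0% of all genes lower and 8.09% higher. Calls in both counts were 8, Hist1h3f was called in Total alone among the 36, Hist1h1c in Unique alone, and Hist1h3i could be tested in Total alone. The log2 fold changes of the 36 had the same sign in 33, and their median absolute difference was 0.05. They differed by over 0.3 for 3 members, which were Hist1h2bm, Hist1h2bj and Hist1h4i, chosen here after their values were seen. With the GC trend, 4 members were called lower in Unique reads (Hist3h2ba, Hist1h3e, Hist1h4d and Hist4h4), where 0.616% of all genes were, and 0 higher, where 0.786% were.

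**Figure D4:**
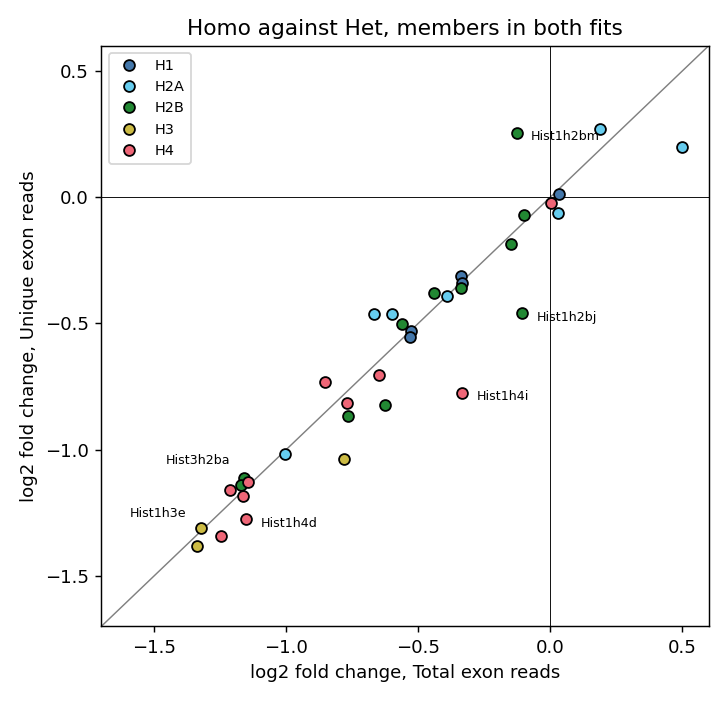
log2 fold change of Homo against Het in Unique exon reads (y axis) against that in Total exon reads (x axis) for the 36 histone genes in both fits, coloured by class. The grey line marks equal values. Points lie close to the line, and Hist1h2bm, Hist1h2bj and Hist1h4i are farthest from it.

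Members that share more sequence tended to lose more reads to the Unique filter, though single members such as Hist3h2a and Hist1h4d departed from this. Over the 8 libraries 42.9% of member reads were not unique, where the share over all genes was 14.0% to 16.1% per library. Across the 46 members with at least 20 reads per library on average and a transcript sequence, the share of reads outside the Unique count and the share of 36-base stretches found in another gene had a Pearson correlation of 0.79 and a Spearman correlation of 0.81. The points share libraries and gene families, so this is a description. Hist1h2ao, with 42 reads in Het library 1, 14 in Homo library 9, 0 in the other 6 and 0 Unique reads anywhere, is an extreme case singled out after its values were seen. When members that share at least 50% of their 36-base stretches were summed, 46 members fell into 7 groups and 28 features were left, a choice made after the data were seen. Of 25 tested, 6 were called lower and 0 higher, with 6.1% of all genes lower and 6.92% higher. They were the group of 9 Hist1h3 genes (167 ± 12.2 CPM in Het, 74.2 ± 19.1 in Homo, log2 fold change −1.17), the group of 7 Hist1h4 genes (236 ± 12.0 and 122 ± 28.4, −0.96), Hist1h4d, Hist3h2ba, the group of 3 Hist2h3 genes (−0.98) and the group of 11 Hist1h2b genes (−0.49, adjusted p = 0.0497). The group of 12 Hist1h2a genes (289 ± 42.5 and 215 ± 55.5) was not called. With the GC trend 3 features were called lower and 0 higher, with 0.442% of all genes lower and 0.483% higher. They were the group of 7 Hist1h4 genes (adjusted p = 0.0404), Hist1h4d (0.0270) and Hist3h2ba (0.0329). Neither H3 group kept its call under the trend. The group of 9 Hist1h3 genes was at −0.75 (adjusted p = 0.0702) and the group of 3 Hist2h3 genes at −0.46 (adjusted p = 0.510). The group of 11 Hist1h2b genes also lost its call (adjusted p = 0.110).

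**Figure D5:**
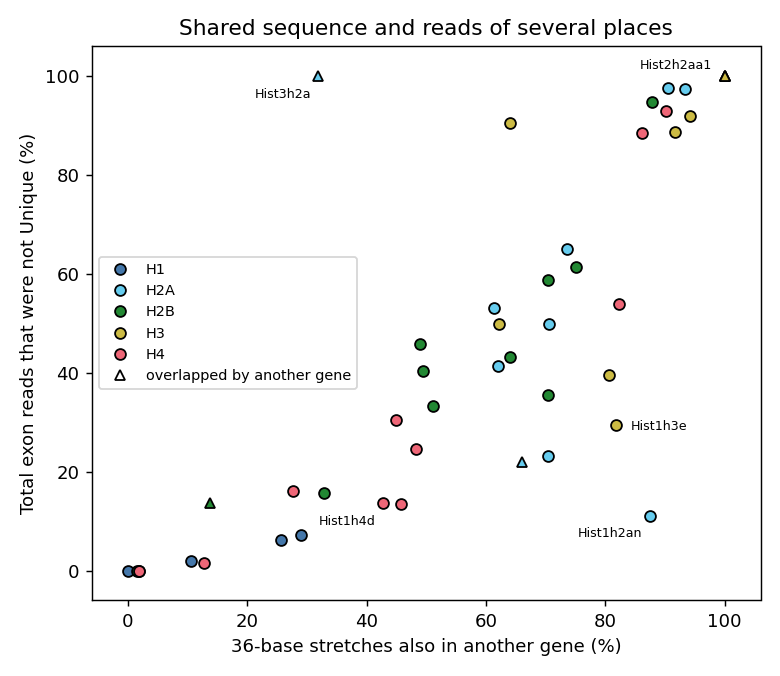
Percent of Total exon reads that were not Unique (y axis) against percent of 36-base stretches also present in another gene (x axis), for 46 histone genes coloured by class. Triangles are genes overlapped by another row of the table other than a miRNA. Most H1 genes sit near the lower left corner and Hist3h2a, a triangle, far above the others at its level of sharing.

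Promoters are printed for the 3 members called with and without the GC trend, with 250 bases before and 50 after the start (RefSeq, GRCm38.p6). Capitals mark CCAAT and TATAAA on either strand, elements long described in histone promoters.

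Hist1h4d (chr13:23581318-23581617, + strand): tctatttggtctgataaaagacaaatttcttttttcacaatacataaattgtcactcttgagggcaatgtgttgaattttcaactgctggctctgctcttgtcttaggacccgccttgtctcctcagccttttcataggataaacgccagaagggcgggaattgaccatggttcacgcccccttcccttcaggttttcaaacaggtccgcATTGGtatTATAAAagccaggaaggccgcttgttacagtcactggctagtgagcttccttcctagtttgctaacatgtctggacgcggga
Hist1h3e (chr13:23562336-23562635, - strand): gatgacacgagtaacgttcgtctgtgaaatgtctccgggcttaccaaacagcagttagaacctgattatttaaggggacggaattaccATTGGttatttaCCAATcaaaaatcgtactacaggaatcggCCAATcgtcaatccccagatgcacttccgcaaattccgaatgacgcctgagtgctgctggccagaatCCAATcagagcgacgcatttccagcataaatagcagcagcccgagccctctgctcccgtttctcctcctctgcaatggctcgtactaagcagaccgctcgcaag
Hist3h2ba (chr11:58948661-58948960, + strand): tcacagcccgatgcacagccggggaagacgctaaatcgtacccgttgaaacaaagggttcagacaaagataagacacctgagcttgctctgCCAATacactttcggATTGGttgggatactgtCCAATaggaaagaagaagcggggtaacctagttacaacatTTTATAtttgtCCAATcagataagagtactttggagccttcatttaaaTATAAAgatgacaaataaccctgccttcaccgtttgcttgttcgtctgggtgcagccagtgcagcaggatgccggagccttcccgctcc

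RefSeq promoters were matched for 62 of the 67 members. CCAAT or its complement was present in 50 of 50 matched H1, H2A, H2B and H3 promoters and in 3 of 12 H4 promoters, where 37.4% of all 32851 RefSeq promoters of this length hold it. TATAAA or its complement was present in 35 of 62 members and in 13.6% of all promoters. Of the 9 called members with a promoter, 6 held CCAAT and 6 held TATAAA, so the called members were of both kinds. The letters do not overlap each other, and a match is no evidence of binding.

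Factors of histone mRNA synthesis, 3′ end formation and decay gave 5 higher calls and 1 lower call among 24 tested, with a median log2 fold change of 0.23, where 6.96% of all tested genes were called higher and 6.12% lower. Slbp was at 46.2 ± 4.45 CPM in Het and 52.2 ± 5.35 in Homo (adjusted p = 0.496). Npat, the coactivator of histone gene transcription, was at 19.9 ± 9.32 and 25.9 ± 6.55 (adjusted p = 0.466). Casp8ap2, a histone locus body protein, was at 29.1 ± 17.1 and 56.2 ± 8.91 (log2 fold change 0.95 ± 0.33, adjusted p = 0.0713). The genes called higher were Ssb, Zcchc11, Zcchc6, Cpsf2 and Cstf2, and Sympk, the scaffold of the histone cleavage complex, was called lower. Ssb encodes the La protein, which binds the ends of RNA polymerase III transcripts, and rose from 87.0 ± 33.9 to 235 ± 53.1 CPM (log2 fold change 1.43 ± 0.24, adjusted p = 0.00297). It was the only factor still called after the GC trend (0.76 ± 0.15, adjusted p = 0.0207). Ssb and Zcchc11, a uridylyl transferase, were called in all 8 fits that each left out a library. Zcchc6 kept its call in 1, Cstf2 in 2, Sympk in 4 and Cpsf2 in 5 of those 8 fits.

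S-phase genes gave no calls in edgeR. Of 29 tested, 0 were called in either direction, where 6.96% of all tested genes were called higher and 6.12% lower. At an unadjusted p under 0.05, 2 were higher and 0 lower, where 15.1% of all genes were higher and 14.2% lower. DESeq2 called 1 higher and 0 lower, with 7.83% of all genes higher and 8.0% lower. Counts in a list of 29 genes do not show that S-phase genes were unchanged. Their median log2 fold change was 0.32, and 0.13 after the GC trend. The summed S-phase level was 504 to 563 CPM in Het and 550 to 736 in Homo. Pcna, the sliding clamp of DNA replication, was at 20.8 ± 4.34 CPM in Het and 28.5 ± 6.47 in Homo (adjusted p = 0.225). The proliferation marker Mki67 varied more within a genotype than between them, at 2.61, 7.35, 87.9 and 34.9 CPM in Het and 1.40, 19.4, 30.4 and 92.2 in Homo. Of 5 tested progenitor and cycling markers, 0 were called (1 higher at an unadjusted p under 0.05, 0 by DESeq2).

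Replication-independent histone variants, which in most cases have introns and poly(A) tails and are not made in S phase alone, gave 1 call. Of 11 tested, 1 was called lower and 0 higher, a share near the 6.12% of all tested genes called lower. The median log2 fold change was −0.26, and 10 of the 11 were negative, against 46.6% of all tested genes. At an unadjusted p under 0.05, 2 were lower and 0 higher, where 14.2% of all genes were lower. DESeq2 called 2 lower and 0 higher, with 8.0% of all genes lower. H3f3a and H3f3b, which encode H3.3, were at 677 ± 77.9 and 613 ± 41.7 CPM in Het and 595 ± 46.9 and 549.6 ± 51.0 in Homo (adjusted p = 0.327 and 0.391). H2afz was at 91.6 ± 12.2 and 82.8 ± 13.9 (adjusted p = 0.579), and H2afx, whose mRNA can end in a stem-loop or a tail, at 60.2 ± 13.9 and 44.7 ± 9.11 (adjusted p = 0.183). H1f0, the linker histone of resting cells, fell from 166 ± 31.5 to 113 ± 15.5 CPM (log2 fold change −0.56 ± 0.15, adjusted p = 0.0275). Its call was kept in 3 of 8 fits that each left out a library and was lost after the GC trend (adjusted p = 0.141).

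The members that could not be tested were 11, with 6 to 77 reads over the 8 libraries: Hist1h2aa, Hist1h2ad, Hist1h2af, Hist1h2ah and Hist1h2ao of H2A, Hist1h2ba of H2B, Hist1h3c, Hist1h3g and Hist2h3c1 of H3, Hist1h4b of H4, and Hist1h1t. Hist1h2aa, Hist1h2ba and Hist1h1t are known from testis. Over the 56 tested members, 10 had all Homo libraries below all Het libraries, and 0 the reverse, where 9.34% of all tested genes were lower without overlap and 10.3% higher.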

How the data were processed

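RNA of sorted RFP+ cells was sequenced as paired reads of 36 bases from 10 ng of total RNA, per the labels. The submitters' processing notes name mm10 and GRCm38 as builds. The aligner, the counter and its strand setting were not given in the sources used here. The authors deposited whole-number counts of Total and Unique exon reads per gene and an RPKM, per the file headers. Total counts hold reads of several places, so near-identical and overlapping members are uncertain.

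Total and, apart, Unique exon reads were tested with edgeR 4.0.16 (R 4.3.3; filterByExpr, TMM, quasi-likelihood F test, 4 Homo against 4 Het libraries, no covariate). Benjamini-Hochberg adjusted p-values cover all tested genes, and those under 0.05 were called. Log2 fold changes are Homo against Het, with the SE from the F statistic. CPM uses TMM-scaled library sizes, and values are mean ± SD (n = 4). The GC trend was a spline with 5 degrees of freedom per library, for the 65 members with a GENCODE M21 transcript (the other 2 took the median GC). DESeq2 1.42.0, other filters and scalings, length trends, whole-gene reads and libraries left out were alternatives. The edgeR fit, plain and with the GC trend, was also run on simulated counts with the same dispersion for every gene. Those counts held no intron-share split, so they do not show how the fits behave on these libraries. No pair of libraries was counted as 1 sample.

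Named members are those called in either count and, per class, the 3 highest in CPM, the one of smallest p and the one with at least 20 mean reads and the highest share of reads not unique. The members, lists and tests were chosen with earlier results of these data known.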

Additional observations from a re-analysis of the deposited data

Results flagged for a closer look

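Within a genotype, 30 sets of 4 libraries were examined for a library far from the other 3, and chance alone marks about 1 in 20 such sets. The H4 gene Hist1h4h was at 72.2 CPM in Homo library 12 where the other 3 Homo libraries were at 46.3 to 50.2. The H4 gene Hist1h4c was at 65.0 CPM in Het library 1 where the other 3 Het libraries were at 34.8 to 39.4. Both genes were called lower in Homo in the fits without those libraries.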

How the results depend on the processing

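Where 10 members were called lower in Total exon reads (6.12% of all genes), the count was 22 without a low-count filter (4.62% of all genes called lower), 3 with the GC trend (0.441%), 2 with GC and exon length trends (0.457%), 5 in the 5 libraries of higher intron share (2.75%), and 5 with intron-share group and GC trend together (1.57%), the last 2 chosen after seeing the data. Reads over the whole gene gave 0 calls among 58 members in edgeR (31 lower at an unadjusted p under 0.05), where 6 of 19551 genes were called, and a median of −1.07 in place of −0.53; the cause was not tested. The GC and exon length trends together gave a median of −0.22. Where 9 members were called in Unique reads (7.52% of all genes), 4 were called with the GC trend (0.616%), 3 with both trends (0.616%), 4 with intron-share group and GC trend (1.6%), and 3 in the 5 libraries (2.86%). With 1 library left out, 2.46% to 8.77% of all genes were called lower in Total and 2.77% to 9.22% in Unique reads, and calls of members ranged from 7 to 16 in Total reads (16 without Het library 3), from 5 to 12 in Unique reads (5 without Het library 2 or Homo library 11, 12 without Het library 3), and the median from −0.67 to −0.48. Under the GC trend with 1 library left out, 0 to 6 members were called lower, with 0.0778% to 1.27% of all genes, and medians from −0.46 to −0.23. No member was called higher in any of these fits. No paired analysis was possible because the genotypes share no library number. Depth limits members of few reads, and 11 could not be tested.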
